A study of Mus musculus with 4 samples.

Results

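Lamp1 and 8 further genes of lysosomal membrane or cargo proteins (Lamp2, Cd63, Cd68, Laptm5, Psap, Npc2, Grn and Hexa) were read in 4 single-cell RNA libraries from the mouse central nervous system, 9 of the 41862 gene columns in the tables. They were chosen by name, as a set known to share a compartment, and each was summed by cell class and library over barcodes with at least 500 unique molecular identifiers (UMIs, tags that count single RNA molecules) and at most 20% mitochondrial UMIs. All mice were C57BL6 and carried Aldh1l1CreERT2-TdTomato, in which an inducible Cre driven by Aldh1l1, an astrocyte gene, turns on a red reporter, and every library held TdTomato+ cells stained for LAMP1 at their surface. The 4 groups were EAE TRAIL+, EAE TRAIL-, naive TRAIL+ and naive TRAIL-, where TRAIL is the death ligand stained at the cell surface. EAE is experimental autoimmune encephalomyelitis, an autoimmune model of multiple sclerosis, induced here with MOG35-55 peptide in CFA adjuvant and sampled at the peak phase. Naive mice are labelled as such and serve as the controls. The series had 3 EAE and 3 naive mice, and each group had 1 library, so no spread between animals was measured, no test was possible, and every interval covers counting error only. The labels do not say how the mice of a state were combined in its library. Sorting on LAMP1 protein was common to all 4 libraries, so cells without surface LAMP1 were not compared.

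Lysosomes are acid compartments in which hydrolases break down material brought in by endocytosis, phagocytosis and autophagy. Their membrane is lined with glycosylated proteins, of which LAMP1 and LAMP2 are the most abundant, and LAMP1 appears at the cell surface when a lysosome fuses with the plasma membrane. In the brain, microglia and other macrophages are known for their heavy lysosomal load. Many lysosomal genes carry a promoter element called CLEAR, bound by TFEB and TFE3, whose core is the E-box CACGTG.

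The 300-base promoter windows of the 9 genes (250 bases before to 50 after the start site, RefSeq, GRCm38.p6; all 9 matched) were searched on both strands for CACGTG, which reads the same on both, and for the GC box GGGCGG. Lamp1 held 4 copies, starting 61, 45, 28 and 15 bases before the start site, and the windows of the other 8 genes held 0. Psap was searched at chr10:60277378-60277677 and at chr10:60284211-60284510. The Cd63 window lies inside the gene as GENCODE places it, from 128900989, so the sequence at that gene start was not searched. Of 32851 mouse windows, 7.15% held at least 1 copy and 8 windows (0.0244%) held at least 4. The motifs do not overlap each other, and the full CLEAR element was not searched. The GC box was in 6 of 9 genes and in 35.7% of windows. These matches describe the letters of the windows only. Shown are the window of Lamp1 (chr8:13158911-13159210, plus strand), with each CACGTG in capitals; that of its closest relative Lamp2 (chrX:38456411-38456710, minus strand); and those of Cd63 (chr10:128909095-128909394, plus strand) and Grn (chr11:102430257-102430556, plus strand), which had the 2 highest ratios of EAE over naive in TRAIL+ microglia-like cells, all 5′ to 3′.
Lamp1: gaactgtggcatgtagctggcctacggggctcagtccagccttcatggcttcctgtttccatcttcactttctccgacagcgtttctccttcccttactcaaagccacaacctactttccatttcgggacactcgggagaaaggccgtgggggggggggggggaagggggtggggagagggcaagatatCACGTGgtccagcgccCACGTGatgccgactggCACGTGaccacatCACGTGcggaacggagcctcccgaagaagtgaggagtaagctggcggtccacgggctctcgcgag
Lamp2: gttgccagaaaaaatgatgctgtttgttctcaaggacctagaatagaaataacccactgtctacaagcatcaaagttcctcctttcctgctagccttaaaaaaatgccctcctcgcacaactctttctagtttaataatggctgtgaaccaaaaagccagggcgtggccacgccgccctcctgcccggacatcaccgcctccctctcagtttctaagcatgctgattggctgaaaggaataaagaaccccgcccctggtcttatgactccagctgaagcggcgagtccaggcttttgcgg
Cd63: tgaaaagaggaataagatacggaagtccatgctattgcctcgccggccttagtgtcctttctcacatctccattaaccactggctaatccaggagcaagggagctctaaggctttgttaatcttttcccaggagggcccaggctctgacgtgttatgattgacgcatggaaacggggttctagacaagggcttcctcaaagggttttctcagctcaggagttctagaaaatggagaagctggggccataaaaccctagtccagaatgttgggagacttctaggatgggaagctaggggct
Grn: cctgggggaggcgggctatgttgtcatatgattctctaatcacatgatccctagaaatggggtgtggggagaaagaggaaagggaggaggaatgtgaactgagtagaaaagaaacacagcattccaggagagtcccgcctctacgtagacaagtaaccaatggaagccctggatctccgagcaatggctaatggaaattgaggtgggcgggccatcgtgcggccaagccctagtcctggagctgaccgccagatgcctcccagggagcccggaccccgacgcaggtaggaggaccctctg

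In GRCm38 the protein-coding genes of the membrane proteins are Lamp1 (chr8:13159161-13175338, plus strand), Lamp2 (chrX:38401357-38456454, minus strand), Cd63 (chr10:128900989-128912822, plus strand), Cd68 (chr11:69664213-69666153, minus strand) and Laptm5 (chr4:130913125-130936141, plus strand), by GENCODE. Those of the cargo proteins are Psap (chr10:60277627-60302597, plus strand), Npc2 (chr12:84754562-84773152, minus strand), Grn (chr11:102430315-102437048, plus strand) and Hexa (chr9:59539540-59565109, plus strand). Lamp1 and Lamp2 thus lie on different chromosomes, and no 2 of the 9 genes overlap.

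The tables listed 2803 barcodes for EAE TRAIL+, 2808 for EAE TRAIL-, 3673 for naive TRAIL+ and 3703 for naive TRAIL-, and 1810, 1569, 2225 and 2218 were kept in that order, with median depths of 1904.5, 1178, 1504 and 947 UMIs. Any pair of libraries shared 22 to 40 barcode sequences among those kept. The labels name the cells as astrocytes, but the marker genes did not bear this out: microglia-like cells made up 89.9% and 84.8% of the EAE and naive TRAIL+ libraries, and 18.9% and 14.3% of the EAE and naive TRAIL- libraries. In microglia-like cells the summed astrocyte markers stood at 350.0 to 420.4 counts per 1000000 UMIs (CPM), against 29969 to 35843 CPM in astrocyte-like cells. They summed to 301 to 309 CPM in endothelial-like cells. In pericyte-like cells of the TRAIL- libraries they reached 12077.5 CPM in EAE and 13360 CPM in naive mice, where the pericyte markers summed to 33808 and 34548 CPM. In fibroblast-like cells of naive TRAIL- they reached 8187 CPM. Astrocyte-like cells numbered 8 in EAE TRAIL+, 3 in EAE TRAIL-, 144 in naive TRAIL+ and 34 in naive TRAIL-, too few in EAE for a comparison of disease. The TRAIL- libraries were mostly endothelial-like (31.5% in EAE, 51.7% in naive) and pericyte- or smooth muscle-like (28.9% in EAE, 22.5% in naive). Since the libraries differ in their makeup, every comparison between libraries is made within a class. A class was used in a library with at least 20 cells and 30000 UMIs, which gave 20 combinations of 9 classes and 4 libraries.

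Lamp1, the gene of the protein used for the sort, was found in every class and varied little among the members, with a span of 8.51-fold over the 20 combinations. Its highest levels were in oligodendrocyte-like cells, at 1197 CPM (exact Poisson 95% interval 966 to 1466) in EAE TRAIL- and 1543 CPM (1333 to 1776) in naive TRAIL-. In the TRAIL+ libraries border macrophage-like cells had 865 CPM in EAE and 1044 CPM in naive mice. Monocyte-like cells had 1035 CPM in the TRAIL+ and 798 CPM in the TRAIL- library of EAE, and the pericyte-like cells of the TRAIL- libraries 975.4 CPM in EAE and 782 CPM in naive mice. The ranges of these 3 classes overlap, and astrocyte-like cells reached into them with 842 CPM in naive TRAIL+ and 600.4 CPM in naive TRAIL-. Microglia-like cells lay within the astrocyte-like range, at 619 to 741 CPM in the 4 libraries. The fibroblast-like cells of naive TRAIL- had 391 CPM with an interval of 248 to 586, which takes in the endothelial-like levels of 318 to 338 CPM. Choroid plexus-like cells were lowest, at 204 CPM (interval to 287) in EAE and 181 CPM in naive mice, both from TRAIL- libraries. Endothelial- and microglia-like levels therefore did not overlap, and neither did choroid plexus- and endothelial-like ones, although the interval of the naive TRAIL+ endothelial-like cells (191 to 497) took in the choroid plexus-like level of 204 CPM. Over all kept cells Lamp1 stood at 676 CPM in EAE TRAIL+, 656 CPM in EAE TRAIL-, 745 CPM in naive TRAIL+ and 514 CPM in naive TRAIL-, and microglia-like cells gave 83.0%, 24.0%, 85.4% and 22.6% of those Lamp1 UMIs in the same order.

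**Figure D1:**
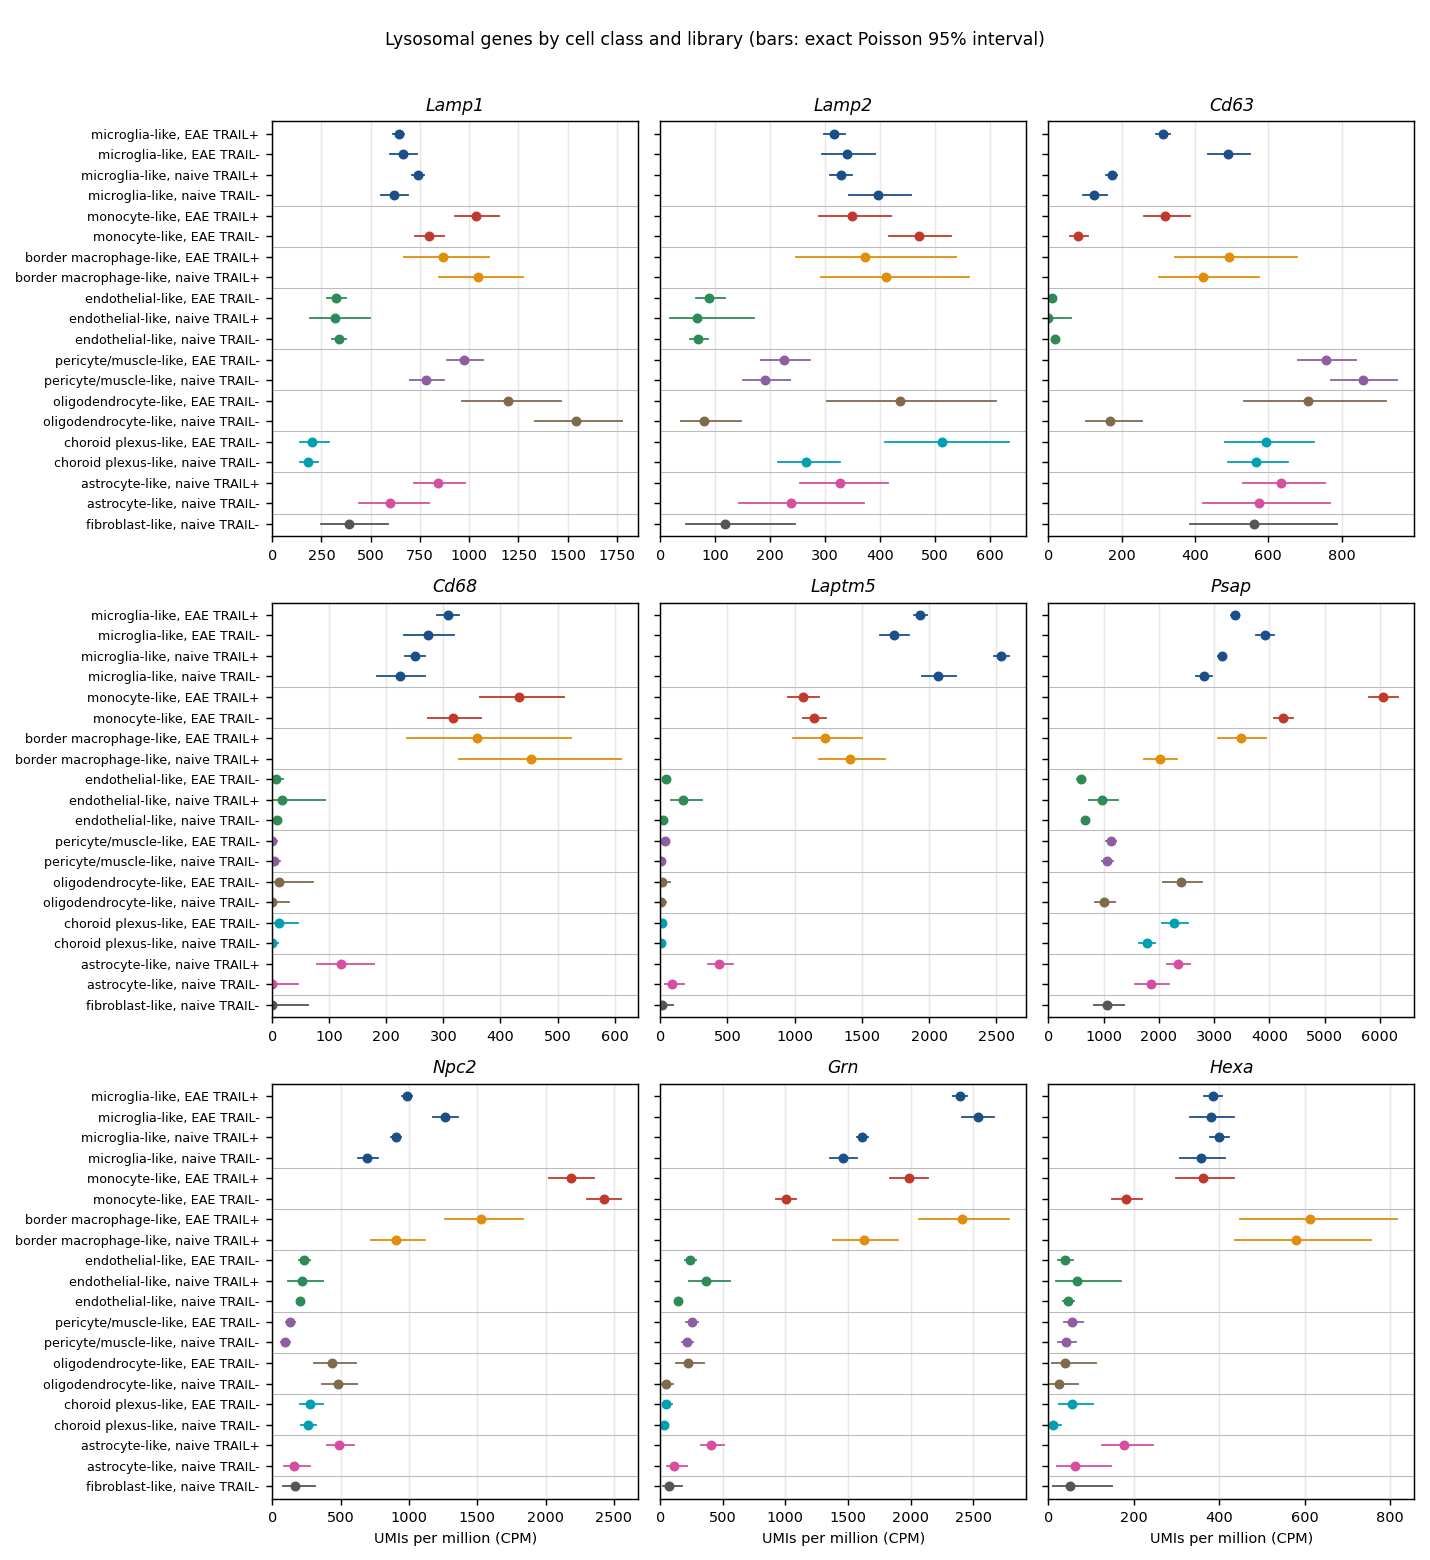
Level of each of the 9 genes in CPM (horizontal axis, from 0) in every class and library with at least 20 cells and 30000 UMIs; points are 1 library each, bars the exact Poisson 95% interval, colours the classes. Cd68, Laptm5 and Grn are high in the microglia-, monocyte- and border macrophage-like rows, above every other class. Hexa is high there too. Its 181 CPM (149 to 220) in monocyte-like EAE TRAIL- cells overlaps the 178 CPM (125 to 245) in astrocyte-like naive TRAIL+ cells. Lamp1 is highest in oligodendrocyte-like rows and Cd63 in pericyte-like ones.

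Among the other membrane genes, Lamp2, which encodes the related LAMP2 protein needed for autophagosomes to fuse with lysosomes, spanned 7.66-fold. It was highest in choroid plexus-like cells of EAE TRAIL-, at 513 CPM, and lowest in endothelial-like cells of naive TRAIL+, at 66.9 CPM from 4 UMIs. Cd63, a tetraspanin of late endosomes, lysosomes and exosomes, was high outside the myeloid classes. In the TRAIL- libraries pericyte-like cells had 757 CPM in EAE and 858 CPM in naive mice, and choroid plexus-like cells had 593 CPM in EAE and 567 CPM in naive mice. It stood at 0 to 18.3 CPM in endothelial-like cells. Cd68, the heavily glycosylated macrosialin of mononuclear phagocytes, stood at 223 to 454 CPM in the 8 microglia-, monocyte- and border macrophage-like combinations. Outside them it was at 0 to 16.7 CPM, except for 120.3 CPM in astrocyte-like cells of naive TRAIL+. Laptm5, a multi-spanning lysosomal membrane protein of haematopoietic cells, had 1063 to 2537 CPM in the same 8 and 7.13 to 438 CPM elsewhere. In the pericyte- and endothelial-like cells of the TRAIL- libraries, Laptm5 was at 0.345% to 2.61% of its microglia-like level, where the 16 microglia markers summed to 0.894% to 1.66% of theirs, so these low levels are not read as expression. The highest of them, 2.61% (1.68 to 3.87) in endothelial-like cells of EAE TRAIL-, lay above the marker sum there, 1.34% (1.17 to 1.53). It lay within the range of the single markers in those cells, 0% to 5.02%. Lamp1 in the pericyte- and endothelial-like cells of the TRAIL- libraries stood at 49.0% to 147% of its microglia-like level.

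The cargo genes were also led by myeloid classes, to different degrees. Psap, the precursor of the saposins that help hydrolases reach sphingolipids, was present throughout, at 588 CPM in endothelial-like cells of EAE TRAIL- as its lowest and 6059 CPM in monocyte-like cells of EAE TRAIL+ as its highest. Npc2, a soluble protein that hands cholesterol to the membrane protein NPC1, was highest in monocyte-like cells of EAE TRAIL- at 2424 CPM and lowest in pericyte-like cells of naive TRAIL- at 95.04 CPM. Grn, which encodes progranulin, a secreted and lysosomal growth factor precursor, reached 2538 CPM in microglia-like cells of EAE TRAIL-. Its lowest level was 29.2 CPM from 10 UMIs in choroid plexus-like cells of naive TRAIL-. Hexa, the alpha subunit of beta-hexosaminidase A, which breaks down GM2 ganglioside, peaked at 612 CPM in border macrophage-like cells of EAE TRAIL+ and had 11.7 CPM from 4 UMIs in choroid plexus-like cells of naive TRAIL-.

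Whether Lamp1 tracks other lysosomal genes was first asked across cell classes. Over the 20 combinations, Pearson correlations of Lamp1 with the other 8 genes, on log2(CPM + 10), were all positive and low, between 0.25 for Lamp2 and 0.45 for Grn, with a median of 0.353. Over the 4040 genes that averaged at least 50 CPM, the median correlation with Lamp1 was -0.0238 and the 90th percentile 0.416, so 2 of the 8, Npc2 and Grn, lay above that percentile. Among the other 8 genes themselves the 28 pairs had a median correlation of 0.717. Cd68, Laptm5, Grn and Hexa formed a tight group, with pairwise correlations of 0.92 to 0.95, and Cd63 stood apart from it at -0.06 to 0.10. Lamp1 was high in oligodendrocyte-like and pericyte-like cells, where Cd68, Laptm5 and Hexa were low. The points share 4 libraries and differ in depth, so no p is given. Without the microglia-, monocyte- and macrophage-like classes, the median with Lamp1 was 0.190 over 12 combinations and 7 genes. Within 1 library it was 0.236 over 6 classes in EAE TRAIL- and 0.0809 over 7 classes in naive TRAIL-.

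**Figure D2:**
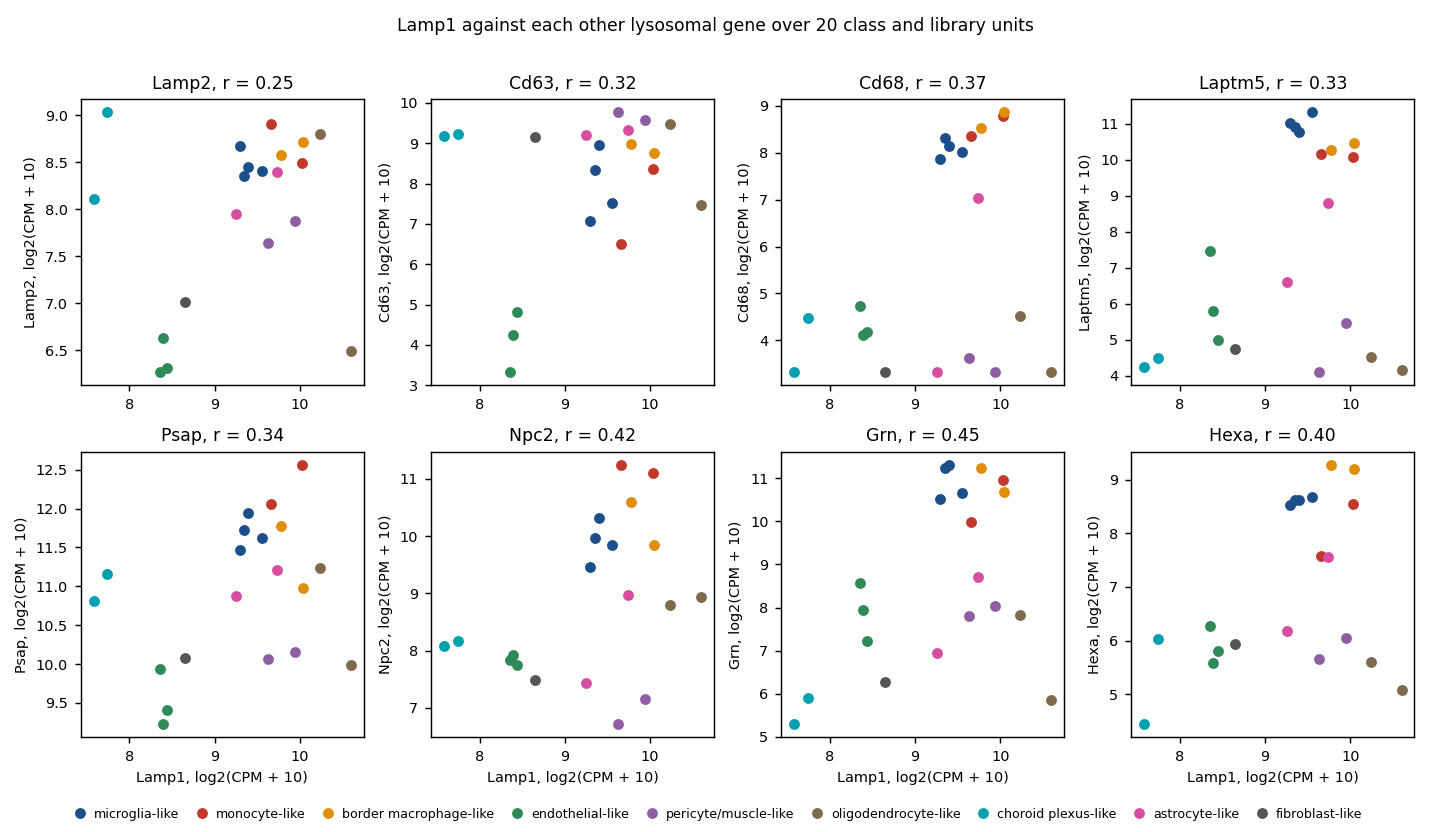
Level of Lamp1 (horizontal axis) against each of the other 8 genes (vertical axis), both as log2(CPM + 10), with 1 point for each of 20 combinations of class and library, coloured by class, and Pearson's r over each panel. The r values run between 0.25 and 0.45, and the oligodendrocyte-like points lie at the right with low Cd68, Laptm5 and Hexa.

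The 10 genes whose levels followed Lamp1 most closely over these 20 combinations included 2 of the lysosome outside the set. They were Ppt1, a palmitoyl-protein thioesterase of the lysosome, with a correlation of 0.84, and Npc1, the cholesterol transporter of the lysosomal membrane, also with 0.84. The remaining 8 were Pde4b, a cAMP phosphodiesterase, with the highest correlation of 0.91; Igsf8 at 0.88; Fnbp1 at 0.85; Snd1 and Zeb2 at 0.83; Gm48161 at 0.82; Rab31 at 0.80; and 5031439G07Rik at 0.79. Of all 4040 genes, 5.05% had a correlation above 0.5. Counted in the lysosomal lists, 2 of 13 genes of other lysosomal membrane proteins, 2 of 15 of the proton pump, 3 of 21 of other hydrolases and activators and 1 of 12 cathepsins were above 0.5. So were 2 of 14 genes of delivery to lysosomes, 3 of 7 of lysosomal exocytosis and 0 of 9 of lysosome transcription control.

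The same question was asked within microglia-like cells, after thinning each cell to 500 UMIs. In EAE TRAIL+, the 8 genes together took 10677 CPM in the 395 cells with a Lamp1 UMI and 9344 CPM in the 1232 cells without, a ratio of 1.14 (exact 95% interval 1.09 to 1.20). In EAE TRAIL- the values were 12257 CPM in 72 cells with and 9387 CPM in 225 cells without, a ratio of 1.31 (1.17 to 1.46). In naive TRAIL+ they were 9982 CPM in 506 cells with and 9115 CPM in 1381 cells without, a ratio of 1.10 (1.05 to 1.15), and in naive TRAIL- 8402 CPM in 74 cells with and 7539 CPM in 243 cells without, a ratio of 1.11 (0.977 to 1.27). The sum was thus higher in cells with a Lamp1 UMI in all 4 libraries, beyond counting error in 3. The median over all genes, taken singly, was 0.940 to 1.00. That median is no matched comparator for a sum: it fell to 1.9e-08 in naive TRAIL- split by Cd63, with 13 cells holding a UMI. In all 4 libraries the ratio of the sum lay within the range of single genes of at least 500 CPM, given below. Single genes vary more than sums, and sums of other genes of like level were not tested. The intervals take UMIs as independent and cells are not replicates. Thinned to 1000 UMIs, the ratio was 1.14 in EAE TRAIL+, 1.29 in EAE TRAIL-, 1.04 in naive TRAIL+ and 1.20 in naive TRAIL-. At 500 UMIs the cells were also split by each other member in turn, with the rest of the set summed. The ratios then ran from 1.01 (Npc2) to 1.15 (Psap) in EAE TRAIL+ and from 1.12 (Lamp2) to 1.48 (Psap) in EAE TRAIL-. In naive mice they ran from 1.01 (Cd63) to 1.08 (Hexa) in TRAIL+ and from 0.928 (Lamp2) to 1.15 (Hexa) in TRAIL-.

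Psap and Grn, both abundant, were among the members with intervals above 1 in the EAE libraries. In EAE TRAIL+, Psap stood at 3605 CPM in cells with a Lamp1 UMI and 3140 CPM in cells without (ratio 1.15, 1.05 to 1.25), and Grn at 2620 and 2188 CPM (ratio 1.20, 1.08 to 1.33). In EAE TRAIL- the ratio was 1.33 (1.11 to 1.60) for Psap and 1.39 (1.09 to 1.77) for Grn. Laptm5 at 1.18 (1.06 to 1.33) and Hexa at 1.32 (1.02 to 1.69) in EAE TRAIL+, and Cd63 at 1.86 (1.05 to 3.24) in EAE TRAIL-, also had intervals above 1. In naive TRAIL+ Cd63 at 1.49 (1.07 to 2.05) and Grn at 1.13 (1.01 to 1.27) had intervals above 1. So did Laptm5 at 1.10 (1.004 to 1.20). In naive TRAIL- 0 of the 8 did. Taken singly, the genes of at least 500 CPM had ratios of 0.857 to 1.15 in EAE TRAIL+, 0.712 to 1.39 in EAE TRAIL-, 0.881 to 1.11 in naive TRAIL+ and 0.732 to 1.37 in naive TRAIL- (the 10th to the 90th percentile), so the ratios of Psap and Grn lay near the upper end of these ranges or just past it in EAE. Lamp2, the nearest relative of Lamp1, had ratios of 0.954 (0.704 to 1.28) in EAE TRAIL+, 1.52 (0.781 to 2.84) in EAE TRAIL-, 0.965 (0.745 to 1.24) in naive TRAIL+ and 1.32 (0.689 to 2.41) in naive TRAIL-, so no difference was detectable at this depth. The markers of the class moved the same way: the 16 microglia markers had ratios of 1.05, 1.10, 1.04 and 1.06 in EAE TRAIL+, EAE TRAIL-, naive TRAIL+ and naive TRAIL-. Their part in the result was not tested. For the cathepsins list the EAE ratios were 1.09 (1.05 to 1.13) in TRAIL+ cells and 1.22 (1.13 to 1.32) in TRAIL- cells, and the naive ones 1.01 (0.980 to 1.05) in TRAIL+ cells and 0.997 (0.904 to 1.10) in TRAIL- cells. The list of other hydrolases and activators did not divide by disease state in this way. Its intervals were above 1 for both EAE libraries, at ratios of 1.07 (TRAIL+) and 1.15 (TRAIL-). The same held for TRAIL+ cells of naive mice, at 1.06 (1.01 to 1.11), but not for their TRAIL- cells, at 0.971 (0.855 to 1.10). Mitochondrial genes, summed likewise, gave 1.01 and 0.911 for EAE and 0.966 and 1.01 for naive mice, TRAIL+ first. These comparators were added after the values of the 8 genes had been seen.

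**Figure D3:**
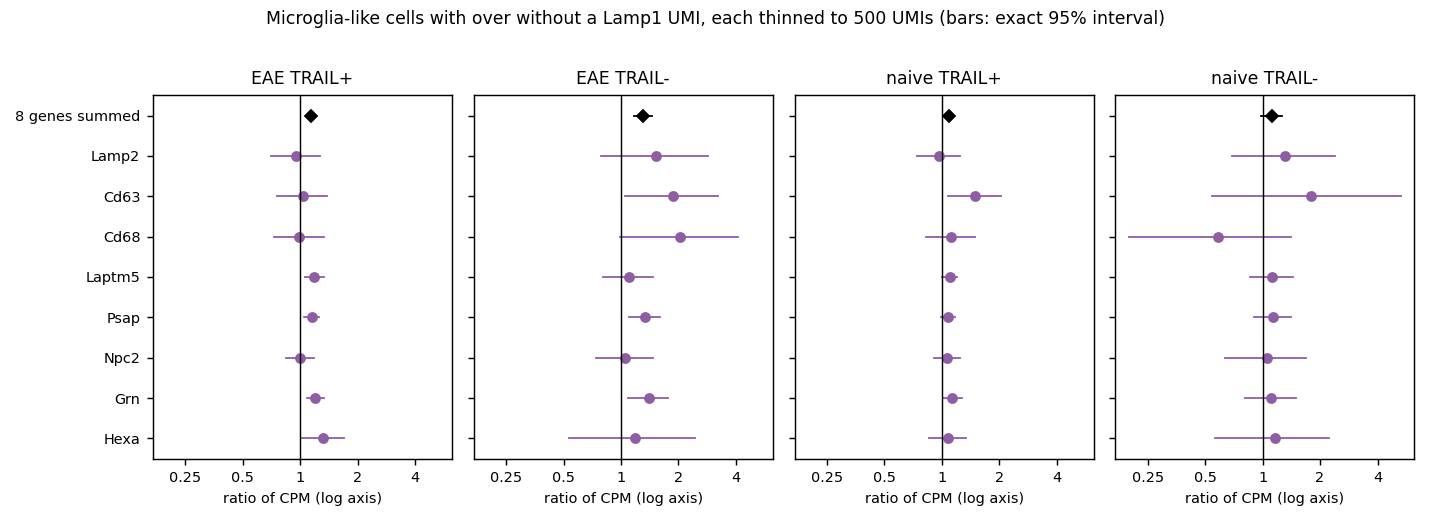
Ratio of CPM in microglia-like cells with a Lamp1 UMI over those without, each cell thinned to 500 UMIs, on a log axis, for the 8 other genes summed (black diamond) and each alone (purple), with exact 95% intervals, in 1 panel per library. The sum lies above 1 in all 4 panels, at 1.14, 1.31, 1.10 and 1.11, and the interval of naive TRAIL- takes in 1.

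Between EAE and naive microglia-like cells, Lamp1 itself differed little, and Cd63 and Grn were higher in EAE. The comparison used 1627 EAE and 1887 naive cells in the TRAIL+ libraries and 297 EAE and 317 naive cells in the TRAIL- ones. The makeup of the class differed between states: a cluster led by Cd74, Hcar2, C4b and MHC class II genes held 36.4% (TRAIL+) and 58.6% (TRAIL-) of the microglia-like cells of EAE, and 0.901% (TRAIL+) and 0.946% (TRAIL-) of those of naive mice. The remaining microglia-like cells were in clusters led by Gpr34 and P2ry12, by Fcrls and Nav3, and by Gpr84.

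Lamp1 had 642 CPM (615 to 670.5) in EAE TRAIL+ and 664 CPM (599.5 to 733) in EAE TRAIL-, against 741 CPM (711 to 772) in naive TRAIL+ and 619 CPM (552 to 691) in naive TRAIL-. The naive TRAIL+ library was thus the highest, with an interval that overlapped that of EAE TRAIL- alone. The ratio of EAE over naive was 0.867 (0.816 to 0.920) in TRAIL+ and 1.07 (0.922 to 1.25) in TRAIL-. Lamp2 had 316 CPM in EAE TRAIL+ and 340.4 CPM in EAE TRAIL-, against 329 CPM in naive TRAIL+ and 397 CPM in naive TRAIL-, and both of its ratios, 0.962 (0.881 to 1.05) and 0.856 (0.701 to 1.05), had intervals that took in 1. Cd63 stood at 312 CPM (293 to 332) in EAE TRAIL+ and 490.2 CPM (435 to 550.2) in EAE TRAIL-, against 173 CPM (159 to 188) in naive TRAIL+ and 125 CPM (95.7 to 159) in naive TRAIL-. Both EAE libraries were above both naive ones, with ratios of 1.80 (1.62 to 2.01) in TRAIL+ and 3.93 (2.99 to 5.25) in TRAIL-. Cd68 had ratios of 1.23 (1.12 to 1.36) in TRAIL+ and 1.22 (0.952 to 1.56) in TRAIL-. Laptm5 was lower in EAE, at 1933 CPM in EAE TRAIL+ and 1741 CPM in EAE TRAIL-, against 2537 CPM in naive TRAIL+ and 2068 CPM in naive TRAIL-, with ratios of 0.762 (0.737 to 0.788) in TRAIL+ and 0.842 (0.772 to 0.918) in TRAIL-.

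Of the cargo genes, Grn stood at 2395 CPM in EAE TRAIL+ and 2538 CPM in EAE TRAIL-, against 1613 CPM in naive TRAIL+ and 1461 CPM in naive TRAIL-. The EAE levels were above the naive ones in both fractions, with ratios of 1.48 (1.43 to 1.54) in TRAIL+ and 1.74 (1.59 to 1.90) in TRAIL-. Npc2 had 985 CPM in EAE TRAIL+ and 1266 CPM in EAE TRAIL-, against 905 CPM in naive TRAIL+ and 696 CPM in naive TRAIL-, with ratios of 1.09 (1.03 to 1.15) in TRAIL+ and 1.82 (1.60 to 2.07) in TRAIL-. Psap had 3373 CPM in EAE TRAIL+ and 3918 CPM in EAE TRAIL-, against 3141 CPM in naive TRAIL+ and 2812 CPM in naive TRAIL-, with ratios of 1.07 (1.04 to 1.10) in TRAIL+ and 1.39 (1.304 to 1.49) in TRAIL-. Scaled by TMM, the TRAIL+ log2 ratios of Psap and Npc2 turned to -0.05 and -0.03, against 0.10 and 0.12 by CPM. Hexa was at 358 to 400.1 CPM in all 4 libraries, with ratios of 0.963 (0.890 to 1.04) in TRAIL+ and 1.07 (0.872 to 1.303) in TRAIL-.

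**Figure D4:**
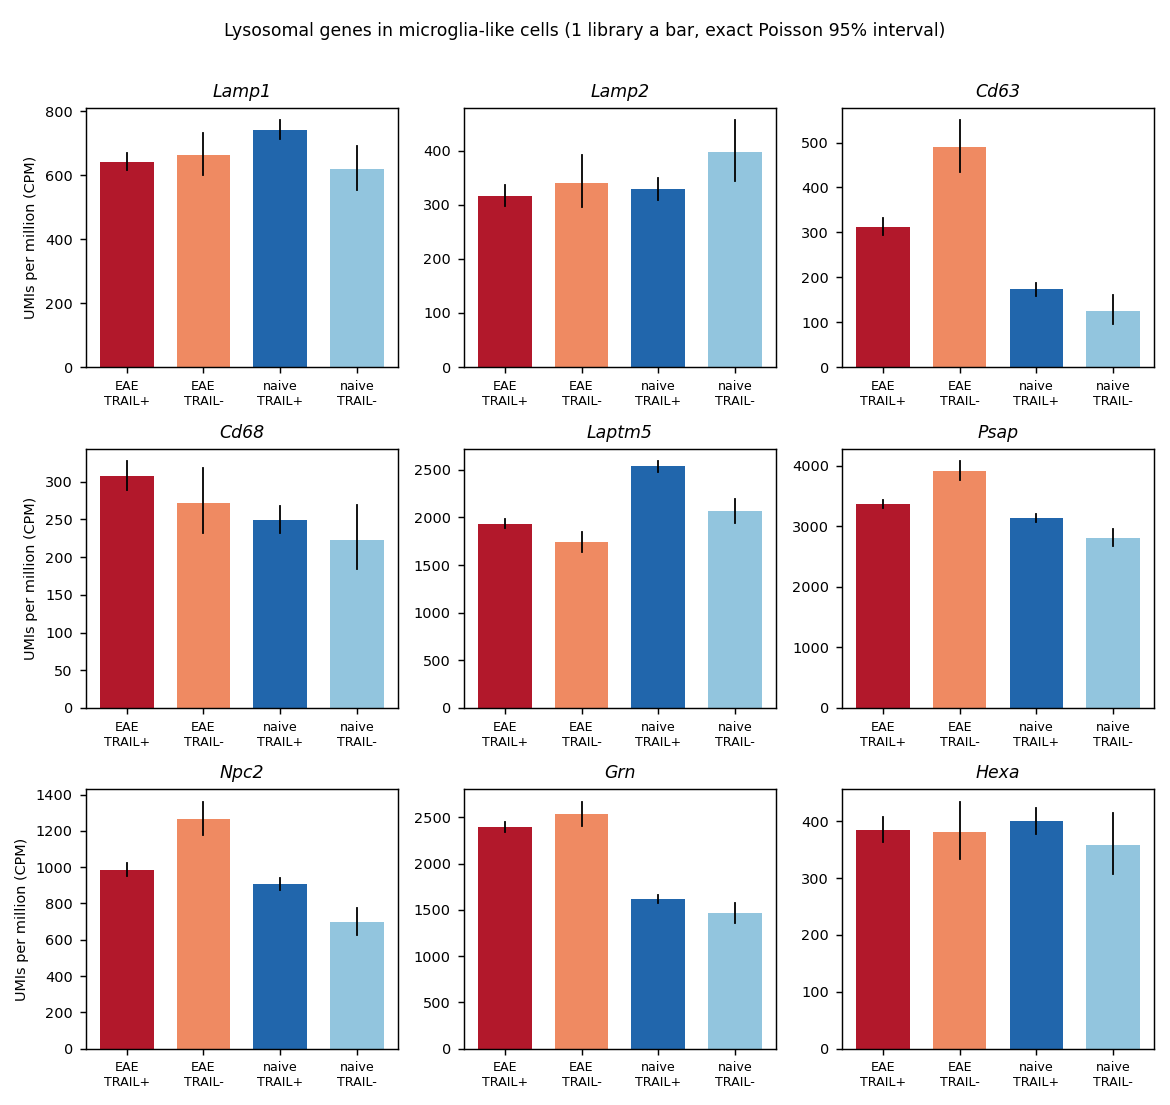
Level of each of the 9 genes in microglia-like cells in CPM (vertical axis, from 0), with 1 bar per library in the order EAE TRAIL+, EAE TRAIL-, naive TRAIL+, naive TRAIL- and black lines for the exact Poisson 95% interval. Cd63 and Grn are higher in both EAE libraries than in both naive ones, Laptm5 is lower, and Lamp1 stays between 619 and 741 CPM.

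Counted at 1.5-fold, 1 of the 9 genes (Cd63) was higher and 0 were lower in EAE in the TRAIL+ libraries, where 8.52% of the 3206 genes that averaged 50 CPM or more were higher and 5.24% lower. In the TRAIL- libraries 3 of 9 (Cd63, Npc2 and Grn) were higher and 0 lower, where 18.8% of 3261 genes were higher and 21.6% lower. The members' median log2 ratio was 0.10 in TRAIL+ and 0.29 in TRAIL-, beside -0.05 and -0.08 over all genes tested. TMM scaling moved all log2 ratios of this comparison by -0.16 in TRAIL+ and median-of-ratios scaling by -0.10, and by -0.06 and 0.09 in TRAIL-. Leaving out the class II-led cluster, a choice made after the data were seen, gave Cd63 a ratio of 1.53 (1.35 to 1.73) in TRAIL+ and 2.87 (2.05 to 4.05) in TRAIL-. Without it the ratio of Grn was 1.33 and 1.43, that of Lamp1 0.821 (0.766 to 0.881) and 0.939 (0.761 to 1.15), and that of Psap 0.940 (0.910 to 0.971) and 1.08 (0.988 to 1.19), in TRAIL+ and in TRAIL-. Npc2 turned to 0.920 (0.865 to 0.978) in TRAIL+ and came to 1.44 (1.21 to 1.70) in TRAIL-. At 1.5-fold Cd63 was then the 1 member higher in each fraction. The share of all genes past 1.5-fold is not given for these cells, so this count is not read as a change from 3.

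The class II-led cluster differed from the other microglia-like cells of its own library in several members, although neither the 9 genes nor the lysosomal lists were used for clustering. In EAE TRAIL+, Cd63 stood at 391 CPM in the class II-led cells and 261 CPM in the others (ratio 1.498, 1.32 to 1.70), Npc2 at 1227 and 829 CPM (1.48, 1.38 to 1.59), Psap at 4036 and 2945 CPM (1.37, 1.32 to 1.42) and Grn at 2782 and 2145 CPM (1.297, 1.24 to 1.36). In EAE TRAIL- the ratios were 1.59 for Cd63, 1.45 for Npc2, 1.49 for Psap and 1.34 for Grn. Lamp1 stood at 692 and 610.4 CPM in EAE TRAIL+ (1.13, 1.04 to 1.24) and at 718 and 580.3 CPM in EAE TRAIL- (1.24, 1.001 to 1.54), and Laptm5 was lower, with a ratio of 0.856 (0.813 to 0.902) there and 0.739 (0.652 to 0.837) in the TRAIL- library. No member passed 1.5-fold in EAE TRAIL+, where 5.55% of 3188 genes were higher and 5.24% lower. In EAE TRAIL- 1 member, Cd63, was higher, beside 15.7% of 3235 genes, and 0 were lower, beside 19.1%. The cells compared come from the same library in each case.

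Between the TRAIL fractions of EAE microglia-like cells, Cd63 was lower in TRAIL+ at 312 CPM, against 490.2 CPM in TRAIL- (ratio 0.637, 0.558 to 0.728), as were Npc2 (0.778, 0.718 to 0.844) and Psap (0.861, 0.823 to 0.901). Laptm5 was higher in EAE TRAIL+ (1.11, 1.04 to 1.19), and Lamp1 had a ratio of 0.968 (0.868 to 1.08), whose log2 value of -0.05 turned to 0.16 under TMM and 0.14 under median-of-ratios scaling. Grn, at 0.944 by CPM, also turned, to log2 values of 0.13 and 0.10. By CPM 1 of 9 genes was lower at 1.5-fold, beside 8.67% of 3219 genes, and 0 were higher, beside 6.55%; by either other scaling 0 were lower. The class II-led cluster held a larger share of the TRAIL- than of the TRAIL+ microglia-like cells of EAE. Within that cluster Cd63 was at 0.681 (0.577 to 0.805), and outside it at 0.723 (0.573 to 0.922).

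In naive mice, Lamp1 was higher in TRAIL+ microglia-like cells at 741 CPM, against 619 CPM in TRAIL- (ratio 1.20, 1.06 to 1.35). Cd63 (1.39, 1.07 to 1.83), Npc2 (1.301, 1.16 to 1.46), Laptm5 (1.23, 1.15 to 1.31), Psap (1.12, 1.06 to 1.18) and Grn (1.10, 1.02 to 1.19) were also higher in TRAIL+. Lamp2 was lower (0.828, 0.711 to 0.968). None of the 9 passed 1.5-fold in either direction, beside 2.96% of 3181 genes higher and 6.70% lower; by either other scaling 2 members were higher. Other scalings moved all log2 ratios between the fractions by 0.21 and 0.18 in EAE and by 0.23 and 0.24 in naive mice, for TMM and median-of-ratios; Lamp2 in naive mice, at -0.27 by CPM, came to -0.04 by TMM.

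**Figure D5:**
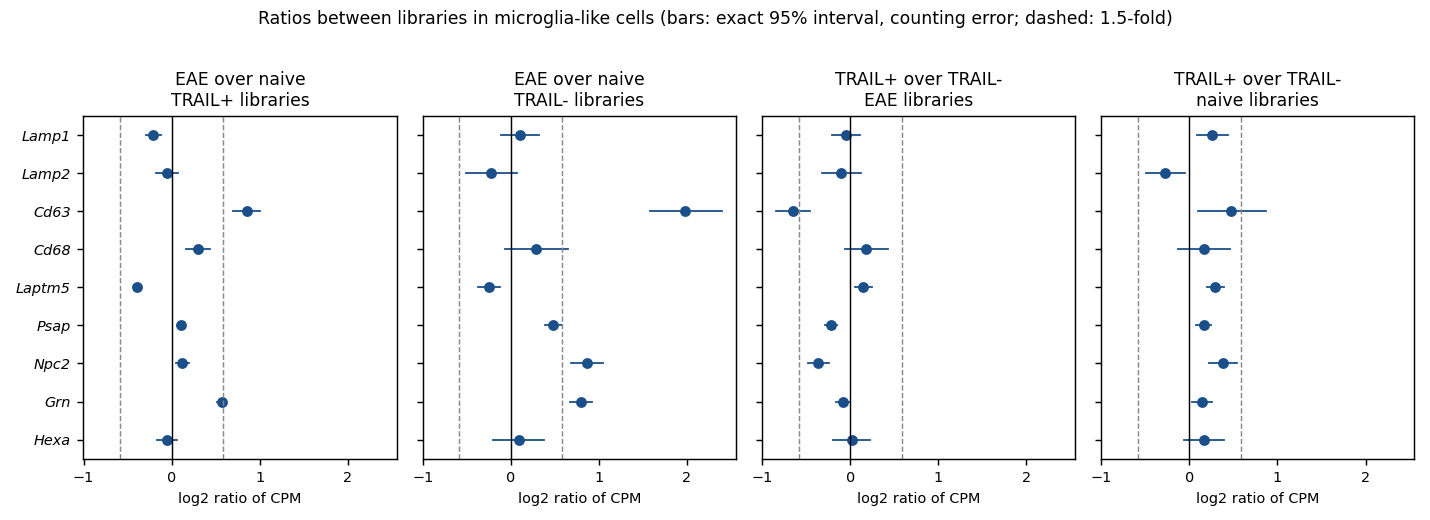
Log2 ratio of CPM in microglia-like cells for the 9 genes (rows) in 4 comparisons (panels), with exact 95% intervals for counting error; the solid line is 0 and the dashed lines mark 1.5-fold. By CPM, Cd63 lies past the upper dashed line in both EAE over naive panels and past the lower one in the TRAIL+ over TRAIL- panel of EAE, and Lamp1 lies between the dashed lines in all 4.

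Other genes of the lysosome in microglia-like cells were counted in 7 lists. Over all genes, 8.52% were at least 1.5-fold higher and 5.24% lower in EAE in TRAIL+. In TRAIL- 18.8% were higher and 21.6% lower. The list of cathepsins, the lysosomal proteases, and related enzymes had the largest share of higher genes in TRAIL+: 4 of 12 measured were at least 1.5-fold higher and 1 lower in EAE in TRAIL+, and 7 higher and 2 lower in TRAIL-. Ifi30, a lysosomal thiol reductase of antigen processing, stood at 338 CPM in EAE TRAIL+ and 580.4 CPM in EAE TRAIL-, against 135 CPM in naive TRAIL+ and 113 CPM in naive TRAIL-. Ctsz had ratios of 1.96 (1.82 to 2.11) in TRAIL+ and 2.62 (2.16 to 3.19) in TRAIL-. Of other hydrolases and activators, 3 of 26 were higher and 1 lower in TRAIL+, and 8 higher and 4 lower in TRAIL-. Gla, the alpha-galactosidase, had ratios of 2.82 (2.20 to 3.64) and 3.79 (2.14 to 7.14), and Arsb, an arylsulfatase, 0.445 (0.396 to 0.5004) and 0.445 (0.342 to 0.575), in TRAIL+ and in TRAIL-. Of 14 other lysosomal membrane genes, 3 were higher and 1 lower in TRAIL+, and 3 higher and 2 lower in TRAIL-. The TRAIL- counts are near the shares of all genes. The list's median log2 ratio was -0.07 in TRAIL+ and -0.21 in TRAIL-, beside -0.05 and -0.08 over all genes. The lower ones were Tmem106b, with ratios of 0.603 in TRAIL+ and 0.391 in TRAIL-, and Cd164, with 0.379 in TRAIL-. The higher ones were Clcn7, a chloride antiporter, with ratios of 1.63 and 2.46; Atp13a2, a polyamine transporter, with 1.58 and 2.11; and Slc11a1, a metal ion transporter of phagocytes, with 1.53 and 1.63.

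The proton pump, which acidifies the lysosome, had 0 of 15 genes past 1.5-fold in TRAIL+ and 4 higher and 1 lower in TRAIL-. Lysosomal exocytosis, a route by which LAMP1 reaches the surface, had 2 of 8 genes higher and 0 lower in TRAIL+, and 5 higher and 0 lower in TRAIL-. Rab27a, a small GTPase of secretory lysosomes, had ratios of 1.63 (1.39 to 1.92) in TRAIL+ and 1.78 (1.14 to 2.82) in TRAIL-, and its partner Unc13d 1.68 (1.43 to 1.99) and 1.66 (1.04 to 2.70). Delivery to lysosomes had 0 of 9 genes past 1.5-fold in TRAIL+ and 3 of 8 higher in TRAIL-. Lysosome transcription control had 0 of 8 past it in TRAIL+, and 0 higher and 2 of 9 lower in TRAIL-, namely Mitf at 40.8 CPM in EAE, against 125 CPM in naive mice, and Tfe3 at 134 CPM in EAE, against 204 CPM in naive mice. Over all genes 8.52% were higher and 5.24% lower in TRAIL+, and 18.8% higher and 21.6% lower in TRAIL-. The 2 of 9 lower genes of transcription control are near that share and are not read as a result. Median log2 ratios were highest for cathepsins, at 0.40 in TRAIL+ and 0.70 in TRAIL-. Between the TRAIL fractions, at most 3 genes of any list passed 1.5-fold in 1 direction, in EAE and in naive mice alike. Over all genes, 6.55% were higher and 8.67% lower in TRAIL+ in EAE, and 2.96% higher and 6.7% lower in naive mice.

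In oligodendrocyte-like cells Lamp2, Cd63, Psap and Grn were higher in EAE, and Lamp1 and Npc2 were not. These myelin-forming cells numbered 35 in EAE TRAIL- and 75 in naive TRAIL-. Lamp2 had 34 UMIs and 438 CPM (303 to 611) in EAE, against 10 UMIs and 79.9 CPM (38.3 to 147) in naive mice, a ratio of 5.47 (2.64 to 12.4). Cd63 had 55 UMIs and 708 CPM in EAE, against 21 UMIs and 168 CPM in naive mice (4.22, 2.51 to 7.34), and Psap 187 UMIs and 2406 CPM, against 126 UMIs and 1007 CPM (2.39, 1.90 to 3.02). Grn had 17 UMIs in EAE and 6 in naive mice (4.56, 1.72 to 14.1). Lamp1 had 93 UMIs in EAE and 193 in naive mice, with a ratio of 0.776 (0.599 to 0.999), and Npc2 a ratio of 0.912 (0.581 to 1.41). Of the 6 genes that averaged 50 CPM or more, 4 were at least 1.5-fold higher and 0 lower, beside 27.9% of 3253 genes higher and 30.7% lower. Cd68, Laptm5 and Hexa had 1 to 3 UMIs or none in either library. The 16 microglia markers stood at a sum of 335 CPM in EAE, against 232 CPM in naive mice. In endothelial-, pericyte- and choroid plexus-like cells of the same libraries they summed to 155 to 495 CPM in EAE, against 114 to 314 CPM in naive mice. The oligodendrocyte markers summed to 72305 CPM in EAE, against 106178 CPM in naive mice. The part of either in the result was not tested.

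The vascular and choroid plexus classes of the TRAIL- libraries differed less between EAE and naive mice. In pericyte-like cells (453 in EAE, 500 in naive mice) Lamp1 had a ratio of 1.25 (1.08 to 1.44) and 0 of the 6 measured genes passed 1.5-fold, beside 10.6% of 3840 genes higher and 13.2% lower. In endothelial-like cells (494 in EAE, 1146 in naive mice) Lamp1 had a ratio of 0.962 (0.800 to 1.15). There Grn was the 1 of 5 measured genes past 1.5-fold, at 238 CPM in EAE, against 139 CPM in naive mice (1.71, 1.35 to 2.18), beside 9.54% of 3647 genes higher and 12.1% lower. Choroid plexus-like cells (41 in EAE, 90 in naive mice) had Lamp2 at 513 CPM in EAE, against 266 CPM in naive mice (1.93, 1.41 to 2.63), 1 of 5 measured genes, beside 18.3% of 3262 genes higher and 19.9% lower. Their Lamp1 ratio was 1.13 (0.714 to 1.74).

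Myeloid cells other than microglia carried more Lamp1 than microglia-like cells of the same library. In EAE TRAIL+, monocyte-like cells had 1035 CPM and microglia-like cells 642 CPM (1.61, 1.43 to 1.81), and in EAE TRAIL- 798 and 664 CPM (1.20, 1.05 to 1.38). Npc2 showed the highest ratio in both, at 2.22 (2.04 to 2.41) in the TRAIL+ and 1.91 (1.75 to 2.10) in the TRAIL- library, and Laptm5 was lower in both, at 0.550 in TRAIL+ and 0.658 in TRAIL-. In EAE TRAIL- Cd63 lay furthest from even, at 80.5 CPM in monocyte-like and 490.2 CPM in microglia-like cells (0.164, 0.118 to 0.224), and Grn (0.395, 0.359 to 0.435) and Hexa (0.476, 0.374 to 0.602) were also lower. In EAE TRAIL+ the ratios of these 3 genes were 1.02, 0.828 and 0.941. In EAE TRAIL+ 3 of 9 genes were at least 1.5-fold higher in monocyte-like cells and 1 lower, beside 28.5% of 3305 genes higher and 25.8% lower. In EAE TRAIL- 1 was higher and 4 lower, beside 28.2% of 3297 genes higher and 25.3% lower. Between the fractions of EAE, monocyte-like cells (110 TRAIL+, 222 TRAIL-) had Cd63 at 319 CPM in TRAIL+ and 80.5 CPM in TRAIL- (3.97, 2.79 to 5.73), Hexa at 1.997 (1.52 to 2.62), Grn at 1.98 (1.77 to 2.21) and Lamp1 at 1.297 (1.12 to 1.495). That is 3 of 9 higher at 1.5-fold and 0 lower, beside 15.3% of 3144 genes higher and 17.3% lower. The makeup of the class also differed. Clustered with all genes, monocyte-like cells of EAE fell in a cluster led by H2-Ab1, H2-Aa, H2-Eb1 and Arg1 (105 TRAIL+, 90 TRAIL-). The rest were in a cluster led by Chil3, Plac8 and Clec4e (25 TRAIL+, 137 TRAIL-). The microglia markers summed to 9010 CPM in the TRAIL+ and 2705 CPM in the TRAIL- monocyte-like cells. The part of makeup or markers in the difference between fractions was not tested.

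Border macrophage-like cells of the TRAIL+ libraries (38 in EAE, 70 in naive mice) had Psap at 3486 CPM in EAE, against 2015 CPM in naive mice (1.73, 1.43 to 2.10), and Npc2 at 1530 and 907 CPM (1.69, 1.26 to 2.26). The makeup of the class differed: a cluster led by Mrc1 and Pf4 held 17 EAE and 58 naive cells, and a cluster led by H2-Eb1, Ccl8 and Mrc1 held 21 EAE and 12 naive cells. The 10 border macrophage markers summed to 5549 CPM in EAE, against 9482 CPM in naive mice, and the part of either in the Psap and Npc2 ratios was not tested. Lamp1 stood at 0.828 (0.596 to 1.14). That is 2 of 9 genes higher, beside 27.6% of 3340 genes higher and 29.5% lower. Astrocyte-like cells could be compared between fractions of naive mice only, where Lamp1 had 842 CPM in TRAIL+ and 600.4 CPM in TRAIL- (1.403, 1.01 to 1.97), and Lamp2 and Cd63 had ratios of 1.38 (0.818 to 2.43) and 1.10 (0.784 to 1.58). Cd68, Laptm5, Npc2, Grn and Hexa were at least 1.5-fold higher in TRAIL+, 5 of 9 genes beside 22.7% of 4191 genes higher and 34.8% lower. The microglia markers summed to 7566 CPM in these TRAIL+ astrocyte-like cells and 1326 CPM in the TRAIL- ones, with all 5 genes high in microglia-like cells, and their part was not tested. Likewise, endothelial-like cells of naive mice had Laptm5 and Grn higher in TRAIL+ (55 cells) than in TRAIL- (1146 cells), 2 of 7 measured genes beside 25.4% of 3745 genes higher and 18.7% lower, with microglia markers at 2577 CPM in TRAIL+ and 309.6 CPM in TRAIL-. Lamp1 had a ratio of 0.941 (0.560 to 1.49) there.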

How the data were processed

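The deposited tables hold UMI counts per barcode and gene symbol, raw counts without scaling by the authors, from inDrops version 3 libraries per the labels' protocols. Alignment used Bowtie and GRCm38, per the submitters' processing notes; their versions and the annotation were not stated in the labels. Groups were taken from the sample titles. Barcodes with at least 500 UMIs and at most 20% mitochondrial UMIs were kept, less 77 doublets that Scrublet called (scanpy 1.11.5, expected rate 5%) (totals per library 2856696 to 3984975 UMIs before filtering). Cells were scaled to 10000 and log-transformed; 2000 variable genes, 30 components, 15 neighbours and Leiden clustering at resolution 1 were run without the 9 genes and the 7 lysosomal lists. Clusters were named "-like" from 17 marker lists, by leading genes seen in at least 20% of cells; a second naming step, added after the data were seen, named the class II-led cluster microglia-like, and 5 clusters, of 26 cells and of 1 cell each, stayed unnamed (30 cells). Members, lists and markers were chosen with earlier results of these data known. Named genes were the 9 members, the 10 highest correlations with Lamp1 and, per list and microglia-like comparison, up to 3 genes past 1.5-fold in each direction, of which examples are given.

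Counts were summed per class and library and divided by their total (CPM, scipy 1.17.1). Ratios carry exact Clopper-Pearson and levels exact Poisson 95% intervals, for counting error only. The ratio computation was tested on simulated data. Alternative scalings used edgeR 4.0.16 (TMM) and DESeq2 1.42.0 size factors; neither tool was used for a test. Gene positions are GENCODE's for GRCm38 and promoter windows RefSeq's for GRCm38.p6.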

Additional observations from a re-analysis of the deposited data

Results flagged for a closer look

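Between the TRAIL fractions of microglia-like cells, 4 members pointed in opposite directions in EAE and in naive mice, with each interval on its own side of 1. Cd63 had a TRAIL+ over TRAIL- ratio of 0.637 in EAE and 1.39 in naive mice, a difference of -1.12 in log2 ratios. Npc2 had 0.778 in EAE and 1.301 in naive mice, a difference of -0.74. Psap had 0.861 in EAE and 1.12 in naive mice, a difference of -0.38. Grn had 0.944 in EAE and 1.10 in naive mice, a difference of -0.23. With 1 library a group none of these differences was tested. Under TMM scaling the EAE log2 ratio was -0.44 for Cd63, -0.15 for Npc2, -0.01 for Psap and 0.13 for Grn. Grn thus no longer pointed in opposite directions, and Psap was close to even in EAE. The class II-led cluster held 36.4% of TRAIL+ and 58.6% of TRAIL- microglia-like cells in EAE, and under 1% of both in naive mice; outside it the EAE ratio was 0.723 for Cd63, 0.832 for Npc2, 0.975 (0.901 to 1.06) for Psap and 1.02 (0.929 to 1.12) for Grn.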

How the results depend on the processing

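No paired analysis was possible because each group has 1 library, and leaving out a replicate could not be run for the same reason. The alternatives covered scaling, UMI and mitochondrial limits, doublets, calling of microglia-like cells, clustering with all genes, low-level filters, the fold and the form of the correlation. None reversed a ratio called at 1.5-fold. Scaling moved values near even: the Lamp1 log2 ratio of EAE over naive in TRAIL+ was -0.36 by TMM and -0.31 by median-of-ratios, against -0.21 by CPM; that of TRAIL+ over TRAIL- was 0.16 and 0.14 in EAE, against -0.05 by CPM, and 0.49 and 0.50 in naive mice, against 0.26 by CPM. Members lower in EAE TRAIL+ than in EAE TRAIL- numbered 0 by TMM, 0 by median-of-ratios and 0 at 2-fold, and members higher in naive TRAIL+ than in naive TRAIL- numbered 2 by each scaling. Members higher in EAE in TRAIL+ numbered 2 with microglia-like cells called cell by cell from markers and 0 at 2-fold, and in TRAIL- 1 at 2-fold. The median correlation of Lamp1 with the other 8 genes was 0.190 without myeloid classes, 0.236 in EAE TRAIL- alone and 0.0809 in naive TRAIL- alone. The single-cell ratio was 1.04 in naive TRAIL+ at 1000 UMIs and 1.34 in naive TRAIL- in the cluster led by Fcrls and Nav3. The value of 1.34 rests on 20 cells with a Lamp1 UMI (interval 1.05 to 1.68). In the cluster led by Gpr34 and P2ry12 the naive TRAIL- ratio was 1.03 (0.876 to 1.21). The other 120 values of main results and 274 of 344 values of single genes kept their size within the counting interval or within 1.5 times the count. The causes were not tested. Depth limits the small classes most: in oligodendrocyte-like cells the naive Grn value rests on 6 UMIs, in the naive TRAIL+ endothelial-like cells Lamp2 and Hexa rest on 4 UMIs each, and in the naive TRAIL- astrocyte-like cells Hexa rests on 5 UMIs and Cd68 on 0.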
